A study of Prunus sibirica with 6 samples.

Results

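GAMYB-type factors are R2R3-MYB transcription factors that carry the gibberellin response in seeds and anthers, and 3 transcript clusters of this kind were measured in flower buds of Siberian apricot (Prunus sibirica). The rule that chose them used annotation and no measured value, although it was set with earlier results of these data known: from a table of 1508 clusters that the authors class as transcription factors and related regulators, those whose best Swiss-Prot hit had the gene name MYB33, MYB65, MYB101, MYB97, MYB120 or GAM1 were taken. Of these names MYB33 was the best hit of 1 cluster and MYB101 of 2, and the other names of 0. A search of the protein, nucleotide and Swiss-Prot descriptions for any of these names or for GAMYB found the same 3 clusters. The rule took the whole gene name, which left out 1 cluster named MYB330, a different MYB of snapdragon.

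The data were RNA-seq libraries of whole flower buds at the labelled microspore stage. The 3 male sterile libraries came from clone No. 1 and the 3 male fertile libraries, the controls, from clone No. 60, and the labels name no treatment. Tree age is not given in the sources used here. Each group was 1 clone (trees propagated from a single genotype), so male sterility cannot be told apart from the clones' other genetic differences. The labels call the samples biological replicates without saying whether they came from separate trees, so p-values refer to the spread among these samples, which may be technical. In whole buds, fewer cells of a type and less RNA per cell cannot be told apart. The clusters are assembled transcripts with no genome coordinates in the tables used here.

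In barley and rice GAMYB was found as a factor that gibberellin induces when it removes DELLA proteins, the repressors of the pathway. In Arabidopsis MYB33 acts with its close relative MYB65 in the tapetum, the anther layer that feeds the developing pollen, and plants that lack both are male sterile. Arabidopsis MYB101 acts with MYB97 and MYB120 in the pollen tube. The RNAs of MYB33, MYB65 and MYB101 are targets of the microRNA miR159, so their RNA level need not follow their transcription. Small RNA was not analysed here.

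The annotation of the 3 clusters differed in strength. The MYB33 cluster (Cluster-6671.4286, 2921 bases) had a Swiss-Prot alignment score of 1045 to Arabidopsis MYB33, and its best nucleotide hit was a GAMYB-like mRNA of Prunus mume, the Japanese apricot. The first MYB101 cluster (Cluster-6671.8436, 2645 bases) scored 589 to Arabidopsis MYB101. Its best protein hit was MYB101 of sweet cherry (Prunus avium), whereas its best nucleotide hit was named MYB108-like; MYB108 is a jasmonate-responsive factor of stamen maturation in Arabidopsis. The second MYB101 cluster (Cluster-6671.3187, 2317 bases) scored 576 to Arabidopsis MYB101. Its best protein hit was an unnamed peach protein, and its best nucleotide hit was named MYB51-like, after an Arabidopsis regulator of indole glucosinolates. The GAMYB-type name of this cluster therefore rested on the Swiss-Prot hit alone.

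The predicted coding part spanned 562 codons in the MYB33 cluster, 468 in the first MYB101 cluster and 587 in the second. It took 57.7% of the cluster length in MYB33, 53.1% in the first MYB101 cluster and 76.0% in the second. Each cluster had 1 predicted reading frame, and each was the sole regulator cluster with its best nucleotide hit. Other clusters from the same gene with another best hit would not be seen by this check. The authors' estimated counts of the MYB33 cluster were whole numbers, within 0.005, in 6 of 6 libraries. They were whole in 3 of 6 libraries for the first MYB101 cluster and in 5 of 6 for the second. Fractional counts arise where reads are divided among clusters.

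Levels are given as FPKM, a fragment count corrected for the length of the cluster and the size of the library, as deposited by the authors. Counts summed over all regulators ran from 1242099 to 1424835 in the fertile and from 957196 to 1122298 in the sterile libraries. The whole-library depth implied by counts, lengths and FPKM was 22.1 to 25.3 M fragments in the fertile and 16.2 to 19.0 M in the sterile libraries. Of the 12 names in a list of floral MADS-box genes, 5 were found, and SEP1, a floral organ identity factor, stood at 109 to 123 FPKM over the 6 libraries.

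In these buds the second MYB101 cluster was more than 10-fold higher in the sterile clone, whereas MYB33 and the first MYB101 cluster stood at nearly the same FPKM in both clones. The order of the levels was the same in all 6 libraries, with the first MYB101 cluster highest, MYB33 next and the second MYB101 cluster lowest. The ranges of neighbouring members in this order did not overlap over the 6 libraries.

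The MYB33 cluster, the Arabidopsis namesake of which acts in the tapetum, stood at 21.2, 24.0 and 22.2 FPKM in fertile replicates 1, 2 and 3. In sterile replicates 1, 2 and 3 it stood at 22.5, 22.3 and 21.2 FPKM. The sterile values lay within the range of the fertile ones but for the lowest, 21.18 against 21.20, so the groups overlapped. The sterile mean was 21.98 ± 0.700 FPKM and the fertile mean 22.46 ± 1.44 FPKM (SD, n = 3 each). In the sterile group MYB33 was above 84.5% of 34377 clusters with FPKM values and ranked 12th of the 67 clusters the authors class as MYB, and in the fertile group it was above 85.6% and ranked 11th. It was thus a well expressed gene in both clones.

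The first MYB101 cluster stood at 31.4, 34.9 and 36.6 FPKM in fertile replicates 1, 2 and 3 and at 37.3, 34.7 and 36.3 FPKM in sterile replicates 1, 2 and 3. Fertile replicate 1 was the lowest and sterile replicate 1 the highest library, and the other fertile and sterile values lay among each other. The sterile mean was 36.1 ± 1.35 FPKM and the fertile mean 34.3 ± 2.65 FPKM (SD, n = 3 each). This was the most abundant of the 3 clusters, above 90.9% of all clusters in the sterile group and 90.7% in the fertile group, and it ranked 5th and 6th within the MYB class.

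In fertile replicates 1, 2 and 3 the second MYB101 cluster stood at 0.410, 0.500 and 0.330 FPKM, from 20, 26 and 15 counts. In sterile replicates 1, 2 and 3 it stood at 5.03, 4.77 and 5.99 FPKM, from 165, 171.94 and 232 counts. Every sterile library was above every fertile one, and no library was near the level that 3 counts would give for a cluster of this length, 0.0512 to 0.0799 FPKM. The sterile mean was 5.26 ± 0.643 FPKM and the fertile mean 0.413 ± 0.0850 FPKM (SD, n = 3 each), a ratio of means of 12.7. Within the MYB class its rank went from 63rd of 67 in fertile to 26th in sterile buds. Even in sterile buds it stayed well below the other members.

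**Figure D1:**
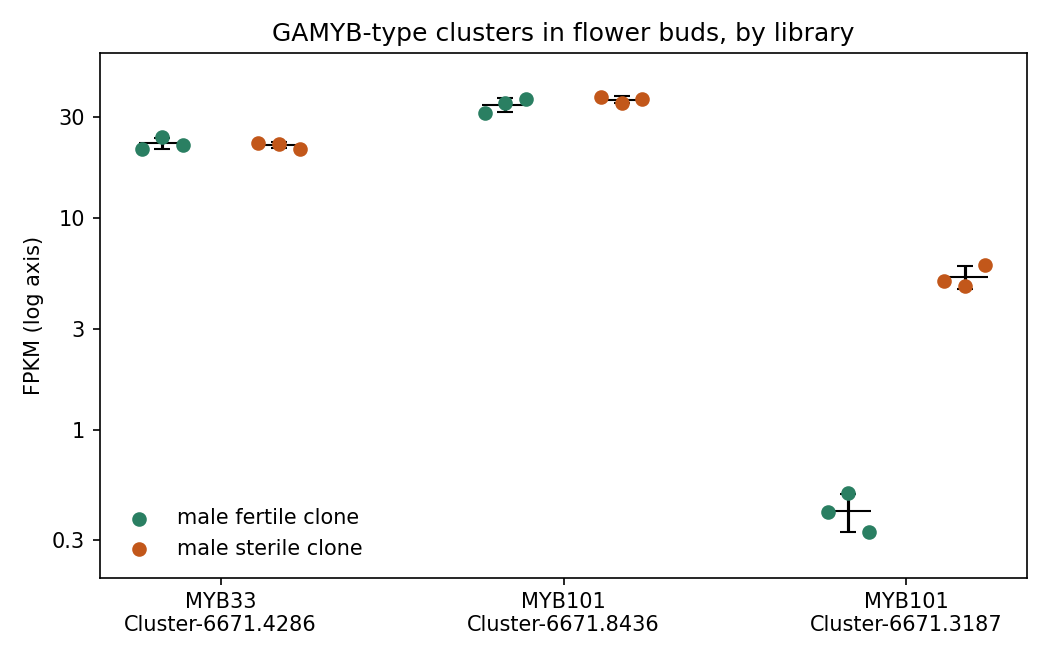
FPKM (log axis) of the 3 GAMYB-type clusters in the 3 libraries of the male fertile and the 3 of the male sterile clone; points are libraries, lines the group mean and SD. The groups overlap for MYB33 (21.2 to 24.0 FPKM over all libraries) and for the first MYB101 cluster (31.4 to 37.3 FPKM), and stand apart for the second MYB101 cluster (0.330 to 0.500 against 4.77 to 5.99 FPKM).

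The comparison of the clones asked which genes differ between male sterile and male fertile buds at the same labelled stage. Estimated counts of all regulators, rounded to whole numbers, were tested with edgeR's quasi-likelihood test, and adjusted p-values (Benjamini-Hochberg) are over all 1380 tested clusters. All 3 GAMYB-type clusters passed the low-count filter. Of these the second MYB101 cluster was called higher in the sterile clone, with a log2 fold change of 3.51 ± 0.18 (SE; edgeR adjusted p = 2.92e-11), an 11.4-fold difference with a 95% interval of 8.69 to 14.9. MYB33 was called lower relative to the other regulators, at -0.18 ± 0.06 (edgeR adjusted p = 0.0278), a fold of 0.886 with an interval of 0.806 to 0.973. The first MYB101 cluster was not called, at -0.07 ± 0.07 (adjusted p = 0.397), and its interval of 0.866 to 1.05 in fold holds decreases and increases. Of all tested regulators 28% were called higher and 28.9% lower, 57% in either direction, so 1 higher and 1 lower of 3 GAMYB-type clusters lay near the background. FPKM ranges that do not overlap, as in the second MYB101 cluster, were found for 68.6% of tested regulators.

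Size set the second MYB101 cluster apart more than its call did. It had the 13th highest log2 fold change of the 1380 tested regulators and the highest of the 61 tested clusters of the MYB class. A larger change in either direction was seen for 1.88% of tested regulators. By contrast, 66.8% of regulators had a larger change than MYB33 and 85.9% a larger one than the first MYB101 cluster. Among the 61 MYB clusters 21.3% were called higher and 39.3% lower, with a median log2 fold change of -0.19, close to the value of MYB33. The median over all tested regulators was 0.01. The authors' deposited table gave log2 fold changes of 3.59 for the second MYB101 cluster (q = 4.0146e-39), -0.11 for MYB33 (q = 0.401) and 0.00 for the first MYB101 cluster (q = 0.997), and marked the second MYB101 cluster alone of the 3 as changed.

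**Figure D2:**
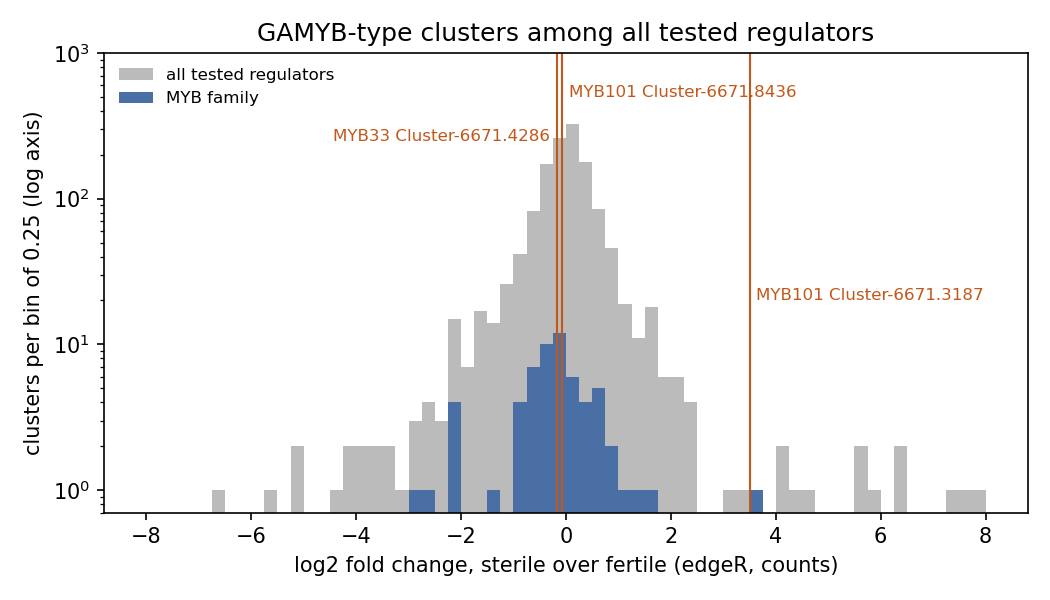
Number of tested regulators (log axis) by log2 fold change, sterile over fertile, from edgeR's fit to the counts, with the MYB class in blue and the 3 GAMYB-type clusters as orange lines. MYB33 (-0.18) and the first MYB101 cluster (-0.07) lie in the middle of the distribution, and the second MYB101 cluster (3.51) lies at the far right, beyond all other clusters of the MYB class.

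The call of MYB33 depended on what its level was set against. With TMM (trimmed mean of M-values) scaling its counts were compared with those of the other regulators. Set against all transcripts, by the implied whole-library totals, the log2 fold change of MYB33 was -0.04 ± 0.07 (edgeR adjusted p = 0.611), and that of the first MYB101 cluster 0.07 ± 0.07 (adjusted p = 0.408). On that scale 41.1% of tested regulators were called higher and 21.5% lower, and their median moved from 0.01 to 0.15. Relative to that median MYB33 was at -0.19 on either scale, while the first MYB101 cluster was at -0.08 on either scale. A change of library totals moves all regulators by about the same amount, so this equality follows from the scaling. On log2(FPKM + 1) over 21730 clusters, limma gave -0.03 ± 0.06 for MYB33 (adjusted p = 0.717), 0.08 ± 0.06 for the first MYB101 cluster (adjusted p = 0.376) and 2.14 ± 0.13 for the second (adjusted p = 1.84e-05). The second MYB101 cluster passed the filter of at least 1 FPKM in at least 3 libraries through its sterile libraries alone. Its entry into this test thus depended on its sterile level. With no such filter it was 2.14 ± 0.13 (limma adjusted p = 2.35e-05). On this scale, which understates the change of low clusters, 49.8% of all tested clusters were called, 29.1% higher and 20.7% lower. MYB33 and the first MYB101 cluster changed sign or call between scales or with a library left out, as given with the alternatives, so no direction is given for either. The second MYB101 cluster was called higher in all 12 alternative fits of the counts, at 3.37 to 3.66.

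**Figure D3:**
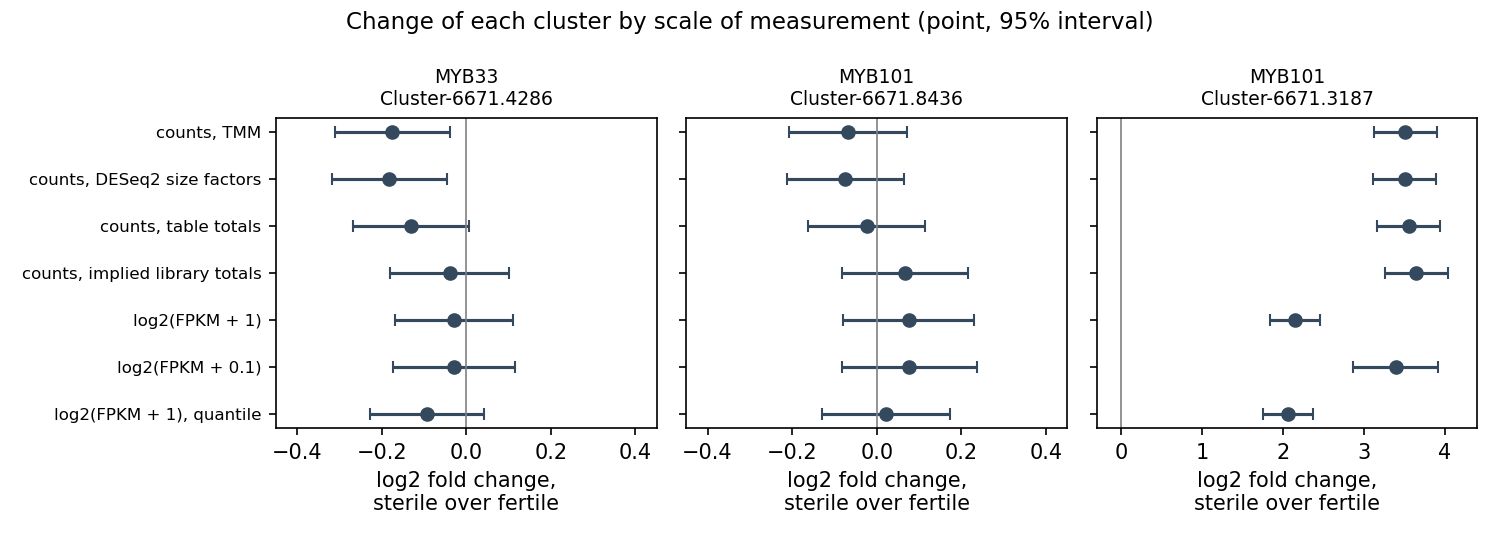
Log2 fold change, sterile over fertile, with its 95% interval for each GAMYB-type cluster under 4 scalings of the counts (edgeR) and 3 treatments of FPKM (limma). Intervals of MYB33 exclude 0 with TMM and with DESeq2 size factors and include it on the other scales; those of the first MYB101 cluster include 0 throughout, and those of the second lie above 0 throughout. The horizontal axis of the third panel covers a wider range.

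Ratios between members within a library do not depend on library scaling. Relative to the first MYB101 cluster, the second stood at 0.0131, 0.0143 and 0.00903 of its FPKM in fertile replicates 1, 2 and 3 and at 0.135, 0.138 and 0.165 of it in sterile replicates 1, 2 and 3. All sterile ratios were above all fertile ones. The mean log2 ratio was -2.78 ± 0.16 in sterile and -6.39 ± 0.35 in fertile buds (SD, n = 3 each). The difference of 3.61 had p = 0.1 in an exact two-sided permutation test, the smallest p that 3 libraries against 3 allow, and 0.2 after adjustment over the 2 ratios tested. The ratio of MYB33 to the first MYB101 cluster was 0.676, 0.690 and 0.606 in the fertile and 0.602, 0.643 and 0.584 in the sterile libraries. These groups overlapped, and the difference of -0.11 in log2 ratio had p = 0.2 in the same exact permutation test, also 0.2 after adjustment.

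Summed over the 3 clusters, GAMYB-type RNA came to 53.0, 59.4 and 59.0 FPKM in the fertile and to 64.9, 61.7 and 63.4 FPKM in the sterile libraries. Of the difference of 6.20 FPKM between the group means, the second MYB101 cluster made up 4.85, the first 1.83 and MYB33 -0.480. The second MYB101 cluster took 0.725 ± 0.148% of the summed FPKM in fertile and 8.31 ± 0.981% in sterile buds. The share of MYB33 was 39.3 ± 1.59% in fertile and 34.7 ± 1.36% in sterile buds, and that of the first MYB101 cluster 59.9 ± 1.74% and 57.0 ± 0.727% (SD, n = 3 each). Together the abundant clusters averaged 58.1 FPKM in the sterile group and 56.7 in the fertile group.

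**Figure D4:**
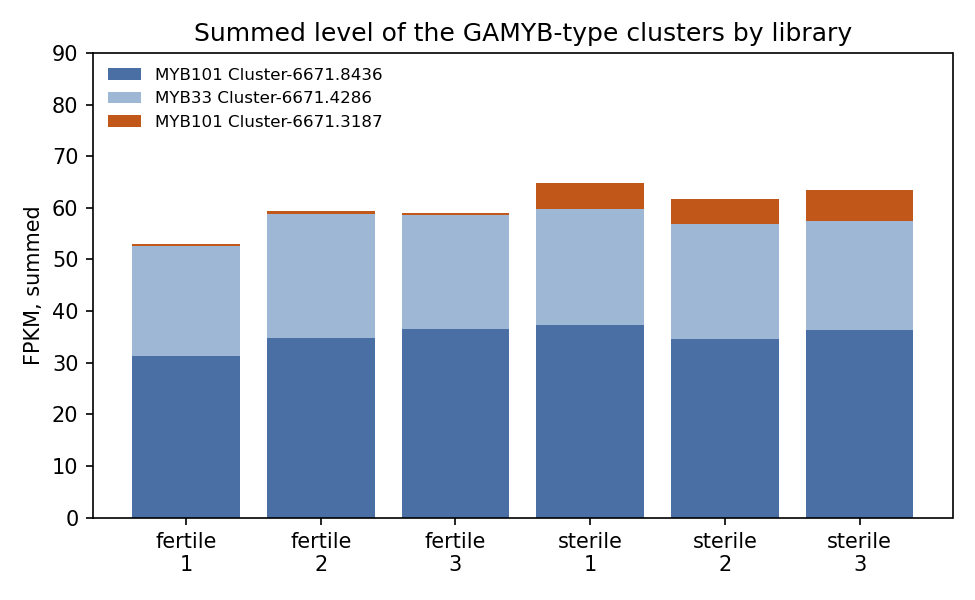
Summed FPKM of the 3 GAMYB-type clusters in each library, stacked by cluster. Sums are 53.0 to 59.4 FPKM in the fertile and 61.7 to 64.9 FPKM in the sterile libraries, and the second MYB101 cluster (orange) is a thin layer in fertile and a visible one in sterile buds.

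Regulators of the gibberellin pathway were called in both directions, in shares above those of all tested regulators. In a list of DELLA repressors, their zinc finger partners, the related GRAS protein SCL3 and bHLH factors linked to DELLA proteins, 15 clusters were found and 14 tested, of which 5 were higher in the sterile clone, 5 lower and 4 not called. That is 35.7% each way, against 28% higher and 28.9% lower of all tested regulators, and the median of the list was 0.08 on the log2 scale. Scaled by implied library totals, 8 of 14 were higher and 4 of 14 lower, where 41.1% and 21.5% of all regulators were. The list is too small for these shares to be read as its property. The DELLA cluster GAI (Cluster-6671.10808), the most abundant one in fertile buds, stood at 87.7, 78.2 and 77.1 FPKM in the fertile and at 66.8, 62.7 and 63.8 FPKM in the sterile libraries, and fell by 0.48 ± 0.07 on the log2 scale (edgeR adjusted p = 2.31e-05). A second GAI cluster (Cluster-6671.14586), the most abundant one in sterile buds, stood at 54.8, 58.6 and 55.0 FPKM in the fertile and at 87.1, 84.5 and 84.4 FPKM in the sterile libraries, and rose by 0.46 ± 0.06 (adjusted p = 5.97e-06). The clones did not overlap in either cluster, and close paralogs may share reads.

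Among the other abundant members of that list, the DELLA gene GAIPB (Cluster-6671.9240) was lower at -0.29 ± 0.06 (edgeR adjusted p = 7.46e-04). The zinc finger IDD1 (Cluster-6671.12246), a DELLA partner in Arabidopsis, was lower at -0.42 ± 0.07 (adjusted p = 5.22e-05). A cluster named IDD5 (Cluster-6671.15635), of the same zinc finger family, was lower at -0.33 ± 0.07 (adjusted p = 4.1e-04). Its best nucleotide hit was named indeterminate-domain 4. Another IDD5 cluster (Cluster-6671.12403) was not called, at 0.03 ± 0.07 (adjusted p = 0.699). With implied library totals that cluster was called higher, at 0.17 (edgeR adjusted p = 0.0366). The light-signalling bHLH factor PIF3 was not called, at -0.07 ± 0.07 (adjusted p = 0.467). The called changes of both GAI clusters, GAIPB, IDD1 and the lower IDD5 cluster kept their call and direction in all 12 alternatives. Among less abundant members, an SCL3 cluster (Cluster-9480.0), PIF4, UNE10 and PIF1 were called higher, at 0.61, 0.55, 0.53 and 0.30. An SPT cluster (Cluster-6671.20134) was called lower, at -0.20. Other clusters named SCL3 (0.14) and SPT (0.13) were not called. The list's summed FPKM was 314 to 318 in the fertile and 326 to 333 in the sterile libraries.

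Of factors that act beside GAMYB in the tapetum of Arabidopsis or rice, 9 clusters were found and 7 tested, with 3 higher (42.9%, against 28% of all tested regulators), 2 lower (28.6% against 28.9%) and 2 not called. With so few clusters these shares are not read as a property of the list. The median of the list was -0.09 on the log2 scale, and scaling by implied library totals left 3 higher and 1 lower (41.1% and 21.5% of all regulators). Its summed FPKM was 105 to 109 in the fertile and 224 to 232 in the sterile libraries. The bHLH factor of tapetum development bHLH10 held 23.9 to 25.5 FPKM of the fertile and 133 to 138 FPKM of the sterile sums. The bHLH factor ABORTED MICROSPORES (AMS) was named by 1 cluster at 0.52 ± 0.08 (edgeR adjusted p = 4.11e-05) and 1 at -0.28 ± 0.06 (adjusted p = 8.39e-04), the second of which lost its call with implied library totals (-0.14, adjusted p = 0.0525). The more abundant cluster named MYB35 (Cluster-6671.4670), an early tapetum MYB, was lower at -0.68 ± 0.13 (adjusted p = 3.2e-04). A low MYB35 cluster (Cluster-2997.0) was not tested and went the other way. It stood at 0.520, 0.210 and 0.160 FPKM in fertile and 1.39, 0.720 and 1.25 FPKM in sterile replicates 1, 2 and 3. The clusters named after the bZIP factors TGA9 and TGA10, which act in early anther development, were not called, at -0.09 ± 0.07 and -0.17 ± 0.08. The best nucleotide hit of the TGA9 cluster was named TGA2, so its anther role is uncertain. For MS1, a late tapetum factor, 170 counts in sterile buds stood against 2 in fertile buds, which is a ratio of 108 per table total, with an exact 95% binomial interval of 29.4 to 897 that covers counting error only.

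**Figure D5:**
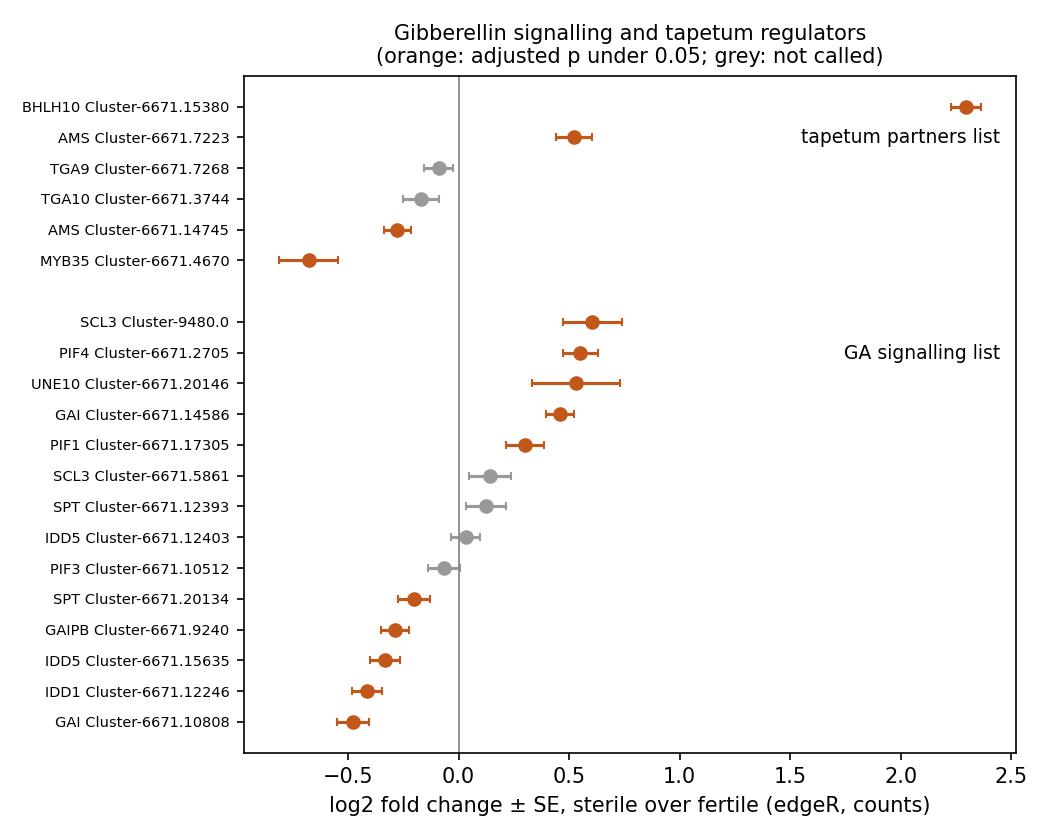
Log2 fold change ± SE, sterile over fertile, of the tested clusters of the gibberellin signalling (GA) and tapetum lists, from edgeR's fit to the counts; orange marks an adjusted p under 0.05 and grey clusters that were not called. MS1, with 2 counts in the fertile libraries, is left out. The GA list runs from -0.48 to 0.61 and bHLH10 stands at 2.30.

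Markers of other bud tissues were called in shares near those of all tested regulators. In the list of 29 clusters for floral organs, carpel, wall and vascular tissue, meristem, green tissue and pollen, 6 of 27 tested were higher (22.2%, against 28% of all tested regulators), 7 lower (25.9% against 28.9%) and 14 not called; their median was -0.07 on the log2 scale. Scaled by implied library totals, 10 were higher and 4 lower, where 41.1% and 21.5% of all regulators were. The carpel and ovule markers summed to 57.2 to 59.4 FPKM in the fertile and 96.5 to 100.03 FPKM in the sterile libraries, most of it DL (DROOPING LEAF, a carpel factor of rice) at 32.6 to 36.2 and 69.1 to 70.5 FPKM. The wall and vascular markers summed to 37.6 to 39.1 FPKM in the fertile and 22.9 to 26.7 FPKM in the sterile libraries. Of 8 tested clusters of this kind 2 were called lower and 6 were not called. The lower ones were MYB26, at 21.1 to 22.6 FPKM in fertile and 11.4 to 13.8 in sterile libraries, and a NAC043 cluster (Cluster-2801.0). That NAC043 cluster stood at 5.88 to 7.24 and 1.51 to 2.15 FPKM. MYB26 and NAC043 are also factors of anther wall thickening, so their levels need not mark tissue outside the anther. Whether these genes mark wall and vascular tissue alone was not tested. The pollen markers summed to 32.1 to 33.8 FPKM in the fertile and 34.6 to 37.8 FPKM in the sterile libraries. Of 8 pollen names 3 were found, and DUO1, MYB125, AGL66, AGL104 and WRKY34 were absent. A WRKY2 cluster (Cluster-6671.8263) held 18.2 to 19.1 FPKM of the fertile and 20.3 to 22.1 FPKM of the sterile sums. The amount of pollen RNA was thus not tested by this sum. The shoot meristem markers summed to 31.3 to 33.8 and 39.6 to 42.2 FPKM. The green tissue marker GLK2 stood at 10.3 to 11.3 and 11.7 to 14.2 FPKM, and the floral MADS genes summed to 329 to 349 and 316 to 333 FPKM. A NAC007 cluster (Cluster-208.0) was listed at 0 in the fertile libraries and at 1.11, 0.93 and 0 FPKM in sterile replicates 1, 2 and 3. The part of these tissues in the difference of the second MYB101 cluster was not tested.

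The regulators with the most similar pattern over the 6 libraries were found by the root-mean-square difference of log2 CPM (counts scaled to a common library size), each centred on its own mean. For the second MYB101 cluster these were the iron-response bHLH factor ORG2 (0.15), a B3-domain cluster named At4g03170 (0.18) and the FAR1-type cluster FRS5 (0.18). ORG2 averaged 0.0233 FPKM in the fertile group and FRS5 was listed at 0, where the log value is set by the prior count of 2, while the mean of the B3 cluster was 1.00 FPKM in the fertile and 11.99 in the sterile group. For MYB33 they were BHLH70, the histone demethylase JMJ706 and a kinase-like cluster named STY17, at 0.0411 to 0.0477. For the first MYB101 cluster they were a DDT-domain cluster named DDB_G0282237, the chromatin factor FGT1 and the trihelix factor ASIL2, at 0.0209 to 0.0334. The median difference from all named regulators was 1.71 for the second MYB101 cluster, 0.225 for MYB33 and 0.209 for the first MYB101 cluster.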

How the data were processed

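The libraries were analysed as 2 groups of 3, grouped and numbered from the sample titles. The submitters' processing notes list CASAVA, Bowtie2 and RSEM, with no version or role for any of them. The assembler and strandedness are not stated in the labels. The authors deposited estimated counts and FPKM for 1508 regulator clusters (1625 entries, 114 clusters listed more than once with equal values) and FPKM for 34377 clusters, per the file headers. The regulator table, per the file headers, also gives cluster lengths and the authors' own q-value and log2 fold change. FPKM of shared clusters was equal in both tables.

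Rounded counts went into edgeR 4.0.16 under R 4.3.3 (filterByExpr, which removed 128 clusters with 0.0424% of counts, TMM, robust glmQLFit and glmQLFTest) without covariates. The F statistic of each fold change gave its standard error. For FPKM, limma 3.58.1 with trend and robust settings was fitted to log2(FPKM + 1) of clusters with at least 1 FPKM in at least 3 libraries. Adjusted p-values under 0.05 were called. Implied totals were the slope of count over FPKM on length, by robust regression over clusters with at least 5 FPKM and 50 counts. On simulated data with 200 changed clusters, edgeR recovered 80% of changes of log2 0.5 and 100% of log2 1, with 5.47% false calls, among 1374 regulators. For limma these were 38% and 76%, with 3.73% false calls, among 21730 clusters. In the data themselves 786 of 1380 regulators and 10816 of 21730 clusters were called. These are far more than the simulation changed, so its rates may not hold here.

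Alternatives were DESeq2 1.42.0, 3 other scalings, no filter, pseudocounts of 0.1 and 5, quantile normalization, a replicate block, counts per length for ratios, and leaving out each library. Named were all members, up to 6 most abundant clusters per list and the 3 nearest patterns per member. MS1, GLK2, NAC007, MYB26, NAC043, WRKY2 and the low MYB35 cluster were named after their values were seen. So were SCL3, PIF4, UNE10, PIF1, SPT and the IDD5 cluster that was not called. Members and lists were chosen with earlier results of these data known. Sequences were not analysed here.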

Additional observations from a re-analysis of the deposited data

How the results depend on the processing

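The second MYB101 cluster kept its direction and its call in all 12 alternatives of the counts (3.37 to 3.66). It also kept them in the 8 FPKM alternatives that gave a value (0.92 with a pseudocount of 5 to 3.39 with 0.1). Where the FPKM filter was used it passed through its sterile libraries alone, so those calls are no separate evidence of its direction. With no low-value filter it was 2.14 (limma adjusted p = 2.35e-05). With a sterile library left out it fell below the FPKM filter, so these 3 gave none. The call of MYB33 was lost with DESeq2 (log2 fold change -0.18, adjusted p = 0.0514), table totals (-0.13, adjusted p = 0.0924) and implied whole-library totals (-0.039, adjusted p = 0.611). It also ended with sterile replicate 1 left out (-0.17), with sterile replicate 3 left out (-0.17) and with fertile replicate 2 left out (-0.14). Without one library in turn its log2 fold change was -0.22 to -0.14, and over all 12 alternatives its adjusted p was 1.03e-04 to 0.611. The lowest p came without fertile replicate 1, where the standard error was 0.049, against 0.073 to 0.081 with another library left out. On FPKM MYB33 was not called in any alternative and ran from -0.067 to 0.019 with one library left out, above 0 only without fertile replicate 2. The first MYB101 cluster turned to 0.067 with the implied whole-library totals and passed the threshold without fertile replicate 1 (-0.11, adjusted p = 0.0137). That call went with a standard error of 0.041, against 0.073 to 0.085 with another library left out. Without one library in turn this cluster was at -0.11 to -0.032, and over all 12 alternatives its adjusted p was 0.0137 to 0.773. Scaled by implied whole-library totals, the numbers of higher and lower clusters were 8 and 4 in the gibberellin list, 3 and 1 in the tapetum list, 10 and 4 among markers of other tissues and 567 and 297 of all tested regulators (387 and 399 with TMM). Same-numbered libraries did not deviate together (correlations 0.0164, 0.0267 and 0.00892). This cannot tell whether they shared a harvest or preparation, which the labels do not state. With the replicate block the log2 fold changes were 3.50, -0.17 and -0.07 for the second MYB101 cluster, MYB33 and the first MYB101 cluster. No call among these 3 changed, with 389 higher and 392 lower regulators. Of the 12 most abundant genes of the gibberellin and tapetum lists (6 each), 8 kept direction and call in all alternatives. PIF3 turned to 0.068 and TGA9 to 0.048 with the implied totals, neither of them called. PIF3 passed the threshold without fertile replicate 1 (-0.14), again with a smaller standard error (0.056, against 0.082 to 0.096 with another library left out). TGA10 passed it with no low-count filter (-0.20), and the lower AMS cluster lost its call with the implied totals. The ratios between members moved by less than their spread in the 7 alternatives each. The low fertile counts of the second MYB101 cluster limit the precision of its fold, and the scale of the libraries limits what can be said of changes as small as that of MYB33.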
